A study of Homo sapiens with 12 samples.

Results

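The genes described here are 46 genes of DNA replication, from the licensing of origins to the protection of the fork, chosen as a list of gene symbols with a mean of at least 1 TPM and grouped here by role. TPM is the share of each gene in its library, corrected for gene length. Over the 12 libraries 13854 of 60902 listed genes reached that mean, all 46 among them. MCM8 was the lowest at 3.21 TPM and PCNA the highest at 326 TPM. RNA was sequenced from A549/DDP cells, which come from the lung adenocarcinoma line A549 and resist cisplatin. Cisplatin (DDP) is a platinum compound whose adducts stall replication forks. The 4 groups of 3 libraries were untreated cells in normal medium (CON), cells given cisplatin (DDP), cells under time-restricted feeding (TRF), and cells given both (TRF+DDP). TRF in culture meant that in every 24 h the cells had 6 h with normal medium, then 18 h in which it lacked both glucose and serum. The sample labels state no medium for the DDP group, which is taken here to be normal medium. All 4 groups were the same resistant line, kept in DDP in routine culture, and the sources used here do not say whether the drug was withdrawn before the experiment. The study states a dose and a time of DDP for A549/DDP cells beside its sequencing results, without saying that they cover the sequenced libraries. It calls the 3 replicates of a group biological, and neither it nor the labels say how they were grown apart, so the p-values measure the spread between these libraries.

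Replication is prepared in G1 phase, when the origin recognition complex, CDC6 and CDT1 load rings of MCM2 to MCM7 onto DNA. This step is called licensing, and geminin (GMNN) blocks CDT1 once it is done. In S phase the kinases CDC7 and CDK, with MCM10, turn the loaded rings into the active CMG helicase, made of CDC45, MCM and the GINS complex. Polymerase alpha and primase then start each strand, the RFC complex loads the sliding clamp PCNA, polymerases delta and epsilon extend, and FEN1 and LIG1 finish the lagging strand while RPA covers the exposed single strands. Many of these genes are known targets of the E2F transcription factors. PCNA and CDKN1A are also known targets of p53, and the CDKN1A protein, p21, inhibits CDK and binds PCNA.

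The promoters shown first are from changed genes that hold letters E2F factors are known to bind. These genes moved in opposite directions. Windows of 300 bases, 250 before and 50 from the start site, were taken from RefSeq (GRCh38.p14) for 40 of the 46 genes, 50 windows in all. They were searched on both strands for TTTCCCGC, TTTCGCGC, TTTGCCGC and TTTGGCGC, and matches are printed in capitals. MCM6, a subunit of the helicase that was lowest in TRF+DDP, has its 250 bases before the start site at chr2:135876444-135876693 on the minus strand. PCNA, the sliding clamp that was highest in TRF+DDP, has them at chr20:5126623-5126872 on the minus strand.
MCM6: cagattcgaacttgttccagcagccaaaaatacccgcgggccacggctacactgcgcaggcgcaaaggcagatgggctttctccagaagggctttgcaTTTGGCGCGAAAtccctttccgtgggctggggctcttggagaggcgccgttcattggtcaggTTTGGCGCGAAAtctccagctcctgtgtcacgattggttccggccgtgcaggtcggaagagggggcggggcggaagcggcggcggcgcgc
PCNA: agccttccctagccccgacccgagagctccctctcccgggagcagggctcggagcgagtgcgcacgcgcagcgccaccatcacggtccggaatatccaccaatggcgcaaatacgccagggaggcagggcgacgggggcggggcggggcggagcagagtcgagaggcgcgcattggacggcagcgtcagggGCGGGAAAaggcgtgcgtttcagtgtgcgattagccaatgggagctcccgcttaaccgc
The MCM6 stretch held 4 matches in 2 runs of capitals, in each of which a match on one strand overlapped a match on the other, and these runs began 152 and 90 bases before the start site. The PCNA stretch held 1, beginning 59 bases before the start site.

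Shorter stretches of 30 bases around the first match follow for 5 genes that were lower in TRF+DDP than in CON (MCM2, MCM3, MCM7, GINS1 and POLA1, of which MCM2 stayed under the fold threshold) and for 2 that were higher (CDC6 and TIPIN).
MCM2: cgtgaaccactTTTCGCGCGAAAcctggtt
MCM3: cggatggtacgTTTCCCGCcaccgcggggc
MCM7: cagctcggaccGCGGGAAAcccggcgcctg
GINS1: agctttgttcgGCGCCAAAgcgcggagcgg
POLA1: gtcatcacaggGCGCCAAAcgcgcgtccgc
CDC6: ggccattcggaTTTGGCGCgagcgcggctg
TIPIN: ccccgcacggaTTTGGCGCCAAAcgctgcg
They lie at chr3:127598402-127598431 (plus strand), chr6:52284898-52284927 (minus), chr7:100101566-100101595 (minus), chr20:25407667-25407696 (plus), chrX:24693770-24693799 (plus), chr17:40287875-40287904 (plus) and chr15:66356733-66356762 (minus), in that order. The match began 2 bases after the start site in MCM2, 5 after in GINS1 and 7 after in CDC6, and 174, 187, 137 and 66 bases before it in MCM3, MCM7, POLA1 and TIPIN. An E2F match was found in 21 of the 50 windows (42.0%), from 21 of the 40 genes, against 5.08% of 14696 windows of tested genes and 3.31% of all 35116 windows. By role, a match was in 5 of 5 genes of the MCM group that had a window, MCM2, MCM3, MCM6, MCM7 and MCM8. MCM4 and MCM5 had no window and were not searched. It was in 4 of 8 genes of origin recognition and loading, 4 of 7 of origin firing and 4 of 8 polymerase and primase genes. It was also in 2 of 6 clamp genes, 1 of 3 of flap, ligase and single-strand binding, and 1 of 3 fork scaffold genes. Of the genes with a window that were called against CON in TRF+DDP, 5 of 7 lower genes and 3 of 5 higher genes held one. The genes printed above all hold a match. PRIM1 and PRIM2, which were lower, and MCM10 and ORC6, which were higher, had no match in their windows. Other windows of PCNA, MCM7 and TIPIN also held none. CCAAT, also searched on both strands, was in 56.0% of the members' windows, 34.4% of those of tested genes and 34.6% of all windows. The letters TTTGAA or TTTAAA, the core of the CHR element of late cell cycle genes, were in 6.0%, 16.4% and 24.0% in the same order. An E2F match overlapped a CCAAT match in 1 window and a CHR match in 0. These are matches of letters and were not tested as binding sites.

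The libraries differed between the media beyond the genes described here. Genes that reached 1 TPM numbered 13726 to 14028 in a library of CON or DDP and 13029 to 13500 in one of TRF or TRF+DDP. Mitochondrially encoded genes took 9.88% to 10.8% of the TPM in normal medium and 6.37% (TRF replicate 3) to 8.84% in TRF medium. Neither measure overlapped between the media, so both moved with every comparison of TRF with normal medium, and their part in the results was not tested. The number of reads behind a TPM value is unknown, so no counting interval can be given. Of 9 markers of lung epithelium 3 reached 1 TPM, the keratins KRT7, KRT8 and KRT18, while KRT19, EPCAM, CDH1 and the lung markers NKX2-1, NAPSA and SFTPC did not. The summed level of this list ran from 1853 to 1926 TPM in CON and 2298 to 2587 in DDP, and among the TRF groups from 2716 to 2881 without DDP and 2688 to 2877 with it. None of 4 leukocyte and 4 endothelial markers reached 1 TPM. Of 4 fibroblast markers COL1A1 did, and the summed list ran from 13.9 to 16.6 TPM in CON and 16.5 to 21.4 in DDP, and 10.2 to 11.98 under TRF alone but 5.67 to 6.84 under TRF+DDP, lowest where the MCM genes were lowest. COL3A1, PDGFRA and DCN stayed under 1 TPM, so this sum was nearly all COL1A1 (mean 12.4 TPM over the 12 libraries). The list thus follows 1 gene and does not measure cell content, and its part in the results below was not tested.

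Changes were fitted with limma on log2(TPM + 1) over all 13854 genes, and a gene was called where its fold passed 1.5 and its p, adjusted by Benjamini-Hochberg, lay under 0.05. Cisplatin in normal medium called none of the 46, TRF alone called 7, and the combination called 10 against DDP and 13 against CON. The direction was mixed in every comparison with calls. In TRF+DDP against DDP 2 genes were higher and 8 lower, where 11.8% of all genes were higher and 21.4% lower (33.2% in all). In TRF against CON 4 were higher and 3 lower, against 8.41% and 17.1% (25.6% in all). After TMM-style or quantile scaling of the libraries 6 were higher and 1 lower there. Scaling also moved the counts of all genes, from 1165 higher and 2375 lower to 1632 and 1842 (TMM-style) or 1625 and 1635 (quantile). In TRF+DDP against TRF 1 was higher and 5 lower, against 10.2% and 6.1% (16.3% in all). In TRF+DDP against CON 5 were higher and 8 lower, against 15.6% and 19.5% (35.1% in all). For DDP against CON the background was 1.86% and 0.159% (2.01% in all). There limma gave the members 9 higher and 1 lower on the adjusted p alone (10.0% and 2.17% of all genes), and 15 and 2 with an unadjusted p below 0.05 (21.0% and 6.19%). The 2-group comparisons thus called 18 of the 46 genes at least once (39.1%), against 48.8% of all genes. With no fold threshold, 11 members were higher and 25 lower in TRF+DDP against DDP (27.0% and 38.4% of all genes), 12 and 13 in TRF against CON (23.7% and 37.0%), 11 and 14 in TRF+DDP against TRF (28.1% and 19.8%), and 16 and 19 in TRF+DDP against CON (31.9% and 35.3%). Libraries lay wholly apart in more genes, with 12 higher and 26 lower for TRF+DDP against DDP (29.2% and 41.0% of all genes), 15 and 13 for TRF against CON (25.7% and 38.8%), and 18 and 4 for DDP against CON (25.7% and 8.89%). For TRF+DDP against TRF they were 13 and 14 (31.6% and 22.9%), and against CON 18 and 20 (34.7% and 37.9%). In bulk RNA, fewer cells in S phase and less RNA of these genes per cell cannot be told apart.

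**Figure D1:**
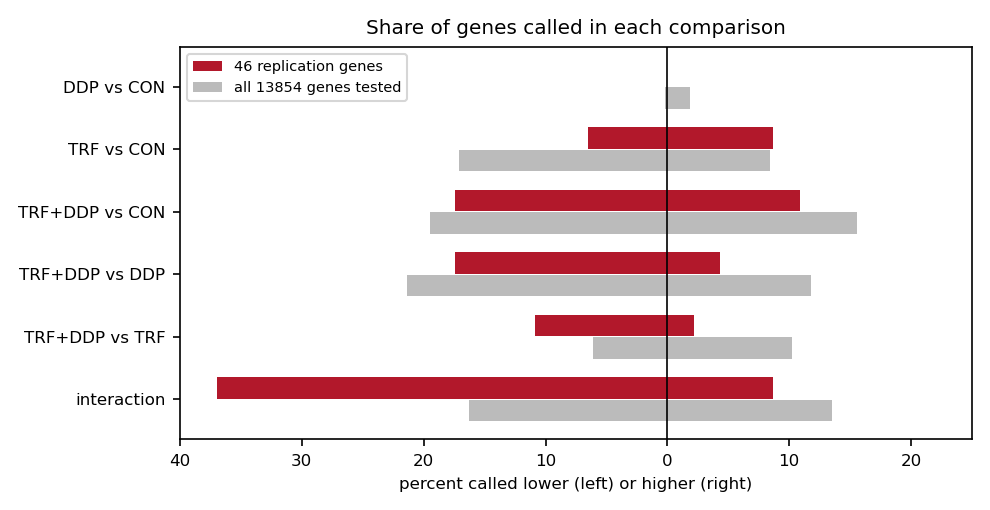
Percent of genes called lower (bars to the left) and higher (bars to the right) in each comparison, for the 46 replication genes (red) and all 13854 genes tested (grey), with the fold threshold of 1.5 in all but the interaction. Red bars are longer than grey ones for genes lower in TRF+DDP against TRF, marginally for genes higher in TRF against CON, and for genes lower in the interaction, where 37.0% of the replication genes stand beside 16.3% of all genes.

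The interaction is the change with DDP in TRF medium minus that in normal medium. Its count uses the adjusted p alone, so it compares with the counts above that have no fold threshold. The interaction was called in 21 of the 46 genes, 17 lower and 4 higher, where 16.3% and 13.5% of all genes were (29.8% in all). Its median over the 46 was −0.203 on the log2 scale, against 0.002 over all genes. The medians of the 2-group comparisons were nearer to those of all genes, at −0.188 against −0.096 for TRF+DDP against DDP, 0.016 against −0.113 for TRF against CON, 0.116 against 0.065 for DDP against CON, −0.03 against 0.063 for TRF+DDP against TRF and −0.076 against −0.027 for TRF+DDP against CON. The summed level of the 46 genes was 1795 ± 37.8 TPM (SD, n = 3) in CON and 1975 ± 35.5 in DDP, against 1741 ± 45.6 in TRF and 1868 ± 46.4 in TRF+DDP, and PCNA was the largest single contributor.

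**Figure D2:**
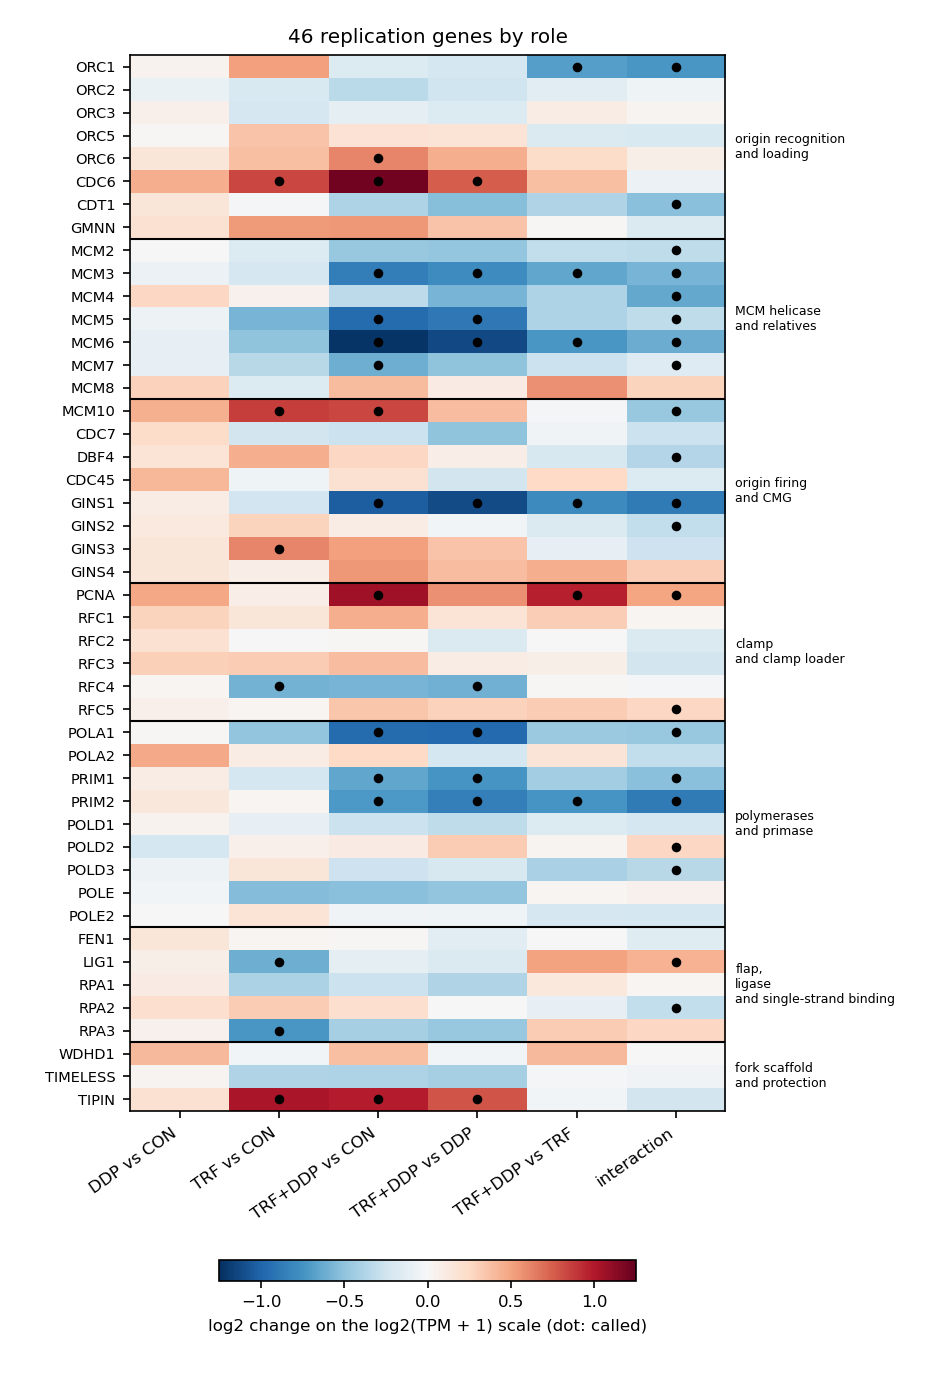
Log2 change of each of the 46 genes (rows, grouped by role between the black lines) in 6 comparisons (columns), from blue for lower to red for higher on the log2(TPM + 1) scale, with a black dot where a gene was called. MCM2 to MCM7, GINS1 and the primase genes are blue in the 3 columns that hold TRF+DDP and in the interaction, while CDC6, PCNA and TIPIN are red against CON.

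MCM2 to MCM7, which form the ring of the helicase, were all lower in TRF+DDP than in DDP, than in TRF and than in CON, and these directions held under quantile and TMM-style scaling. Against DDP their libraries did not overlap in 6 of 6 genes (41.0% of all genes lay apart on the lower side), the median change was −0.69 on the log2 scale, and MCM3, MCM5 and MCM6 were called. MCM6 (ENSG00000076003) moved most. MCM6 stood at 57.0, 57.7 and 52.8 TPM in CON and 51.1, 55.4 and 49.4 in DDP, against 35.6, 41.7 and 40.4 in TRF and 24.4, 23.1 and 22.4 in TRF+DDP. Every TRF+DDP library lay below every TRF library, and these below every library in normal medium. The log2 change was −1.13 (standard error 0.0682, adjusted p = 2.4e-08) against DDP, −0.73 against TRF and −1.23 against CON, from 55.8 ± 2.66 to 23.3 ± 1.00 TPM (SD, n = 3). Its change of −0.50 with TRF alone missed the fold threshold (adjusted p = 4.48e-05).

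MCM5 and MCM3 followed the same order of groups. MCM5 stood at 95.98, 95.9 and 99.2 TPM in CON and 92.6, 92.7 and 92.4 in DDP, against 62.9, 63.1 and 68.1 in TRF and 50.7, 49.6 and 47.7 in TRF+DDP. MCM5 fell by 0.90 on the log2 scale against DDP and by 0.96 against CON, with no overlap between any pair of groups. Its change of −0.58 with TRF alone lay just under the fold threshold, which it passed without CON replicate 1 (−0.59). MCM3 stood at 80.6, 83.3 and 82.6 TPM in CON and 77.6, 77.5 and 79.3 in DDP, against 68.0, 70.5 and 74.3 in TRF and 46.1, 45.5 and 42.7 in TRF+DDP. MCM3 fell by 0.79 against DDP, 0.65 against TRF and 0.86 against CON, while its change with TRF alone was −0.21 (adjusted p = 0.00143). MCM7 stood at 150, 154 and 158 TPM in CON and 148, 140 and 142 in DDP, against 123, 119 and 121 in TRF and 102, 102 and 97.6 in TRF+DDP. MCM7 was called against CON alone, at −0.61 (standard error 0.0382, adjusted p = 2.75e-08), close to the fold threshold, and lost after TMM-style scaling (−0.57).

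MCM2 and MCM4 had smaller or noisier differences. MCM2 stood at 69.0, 70.3 and 66.1 TPM in CON and 70.5, 69.3 and 66.9 in DDP, against 62.3, 57.2 and 63.0 in TRF and 51.1, 48.3 and 47.4 in TRF+DDP. The TRF+DDP libraries were the lowest, but its changes of −0.49 against DDP (adjusted p = 2.94e-06) and −0.48 against CON were under the fold threshold. MCM4 stood at 126, 138 and 119 TPM in CON and 164, 145 and 150 in DDP, against 112, 155 and 133 in TRF and 114, 87.7 and 104 in TRF+DDP. MCM4 varied more between the replicates of TRF than the other subunits, and TRF and TRF+DDP overlapped. Its change against DDP, lay at the fold threshold without passing it, and passed it after quantile normalization (−0.61). MCM8, a relative of the helicase that acts in repair by recombination, was not called in any comparison and ranged from 1.88 to 5.77 TPM over the 12 libraries. The summed level of MCM2 to MCM7 was 585 ± 12.1 TPM in CON and 588 ± 13.5 in DDP, against 490 ± 22.8 in TRF and 369 ± 17.4 in TRF+DDP. The subunits, which enter the ring in equal numbers, also drew apart in level. The highest of the 6 was 2.76 ± 0.203 times the lowest in CON and 4.59 ± 0.140 times in TRF+DDP, and MCM6 made up 9.54% of the sum in CON and 6.31% in TRF+DDP.

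**Figure D3:**
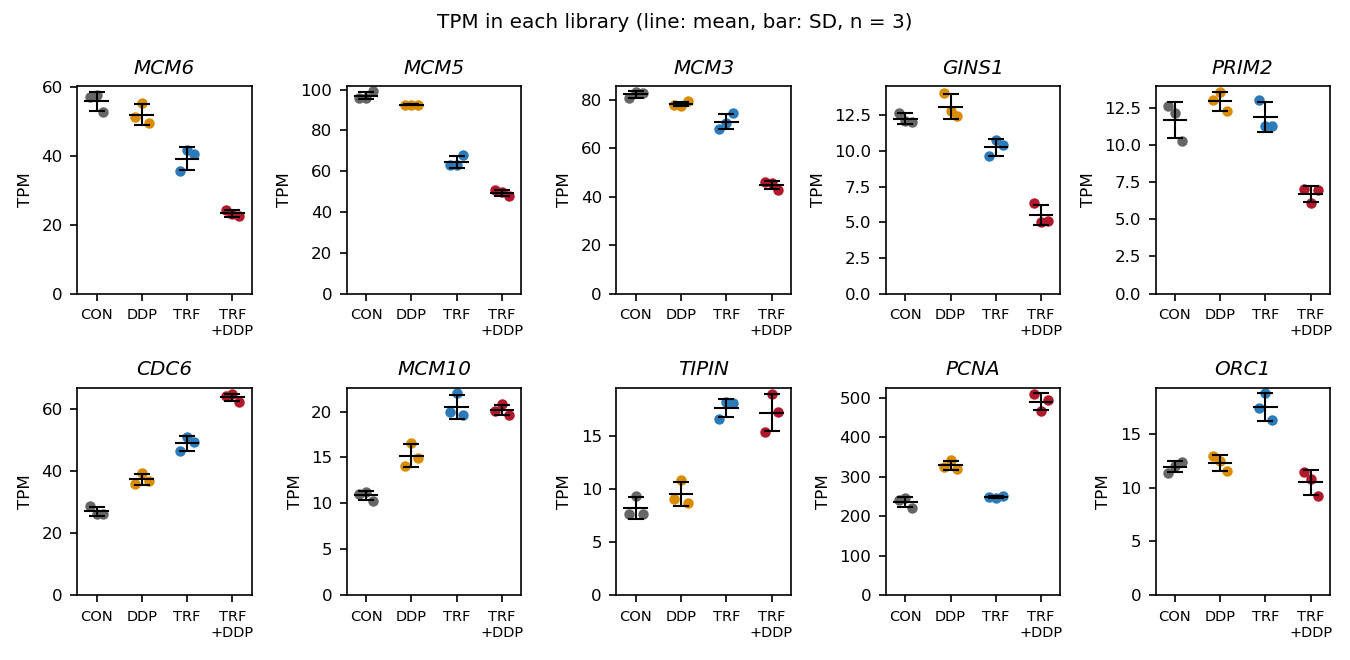
TPM of 10 replication genes in each of the 12 libraries, with 1 panel a gene and a vertical axis from 0 (points: libraries, line: mean, bar: SD, n = 3). MCM6, MCM5 and MCM3 step down from CON to TRF+DDP, GINS1 and PRIM2 are lowest in TRF+DDP, CDC6 steps up, TIPIN is high in both TRF groups, PCNA is high in TRF+DDP, and ORC1 is high in TRF alone.

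Among the factors that load the ring, CDC6 went the other way. CDC6 (ENSG00000094804), the ATPase that brings MCM to the origin recognition complex, rose with TRF in both backgrounds. CDC6 stood at 28.8, 26.2 and 26.3 TPM in CON and 35.8, 39.4 and 37.0 in DDP, against 46.6, 51.1 and 49.4 in TRF and 64.2, 64.9 and 62.5 in TRF+DDP. No pair of groups overlapped, and the order from low to high was CON, DDP, TRF and TRF+DDP. The log2 change was 0.83 (standard error 0.0554, adjusted p = 9.37e-08) for TRF against CON, 0.76 for TRF+DDP against DDP and 1.21 for TRF+DDP against CON. The changes with DDP, 0.45 in normal medium and 0.38 in TRF medium, had adjusted p-values of 0.00026 and 0.000151 but missed the fold threshold, and the interaction was −0.08 (standard error 0.0784, adjusted p = 0.506) with a 95% interval of −0.25 to 0.10. For every 100 TPM of summed MCM2 to MCM7 there were 4.63 ± 0.314 TPM of CDC6 in CON and 6.37 ± 0.428 in DDP, against 10.00 ± 0.104 in TRF and 17.3 ± 0.854 in TRF+DDP. The ratios between members given here were chosen after the levels had been seen and carry no test.

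Among the subunits of the origin recognition complex, ORC1 and ORC6 were called. ORC1 stood at 11.4, 11.99 and 12.4 TPM in CON and 13.0, 12.5 and 11.5 in DDP, against 17.4, 18.9 and 16.3 in TRF and 11.5, 10.8 and 9.24 in TRF+DDP. ORC1, the ATPase subunit that is made anew in each G1 phase, was thus highest under TRF alone and back near the CON level in TRF+DDP, which overlapped with CON. It fell by 0.69 in TRF+DDP against TRF, and its change of 0.52 with TRF alone was under the fold threshold (adjusted p = 0.000225) and passed it after TMM-style scaling (0.63). ORC6 stood at 19.3, 20.1 and 20.2 TPM in CON and 22.7, 22.5 and 21.6 in DDP, against 25.2, 28.2 and 25.03 in TRF and 30.6, 30.6 and 31.3 in TRF+DDP. ORC6 rose against CON by 0.61 (standard error 0.0562, adjusted p = 9.61e-07). ORC2, ORC3 and ORC5, the stable core of the complex, were called nowhere, and lay between 8.93 and 17.7 TPM in all libraries.

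CDT1, which loads MCM together with CDC6, and its inhibitor geminin were not called in a 2-group comparison. CDT1 stood at 54.7, 53.8 and 55.6 TPM in CON and 59.7, 59.9 and 63.1 in DDP, against 54.0, 53.9 and 54.8 in TRF and 41.4, 46.3 and 37.9 in TRF+DDP. The 3 TRF+DDP libraries were the lowest of the 12, at −0.54 against DDP (adjusted p = 7.66e-06), and the interaction was called at −0.52 (standard error 0.0868, adjusted p = 0.000834). The change of CDT1 against DDP passed the fold threshold without TRF+DDP replicate 2 (−0.61). GMNN was 32.7 ± 2.17 TPM in CON and 37.3 ± 1.54 in DDP, against 47.8 ± 3.25 in TRF and 48.1 ± 2.33 in TRF+DDP. Its changes against CON, 0.535 in TRF and 0.545 in TRF+DDP, lay just under the fold threshold. The change in TRF passed it after TMM-style scaling (0.655), and that in TRF+DDP without CON replicate 1 (0.586). The ratio of CDT1 to GMNN was 1.68 ± 0.135 in CON and 1.63 ± 0.113 in DDP, against 1.14 ± 0.0789 in TRF and 0.872 ± 0.120 in TRF+DDP, and neither TRF group overlapped with the groups in normal medium.

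Of the genes that fire origins and build CMG, GINS1 fell and MCM10 and GINS3 rose. GINS1 (ENSG00000101003), a subunit of the GINS complex that joins CDC45 and MCM, was lowest with the combination. GINS1 stood at 12.7, 12.1 and 12.02 TPM in CON and 14.1, 12.8 and 12.5 in DDP, against 9.63, 10.8 and 10.4 in TRF and 6.34, 5.04 and 5.12 in TRF+DDP. The TRF+DDP libraries stood below every other library, with a log2 change of −1.12 (standard error 0.0876, adjusted p = 2.33e-07) against DDP, −0.80 against TRF and −1.04 against CON. No other subunit was called lower between groups, and GINS2 was −0.18 in TRF+DDP against TRF (adjusted p = 0.0148), under the fold threshold. GINS3 stood at 9.03, 8.78 and 9.06 TPM in CON and 9.81, 10.7 and 9.81 in DDP, against 13.3, 15.3 and 14.04 in TRF and 11.97, 13.1 and 14.5 in TRF+DDP. GINS3 rose with TRF alone by 0.61 on the log2 scale (0.56 and not called without TRF replicate 2), and the change of 0.35 in the presence of DDP was under the fold threshold. GINS2 ranged from 15.2 to 19.6 TPM and GINS4 from 13.5 to 23.5, without a call between groups. GINS1 made up 23.5% of the summed GINS TPM in CON and 22.8% in DDP, against 17.1% in TRF and 9.45% in TRF+DDP.

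MCM10, which helps the loaded helicase to start, was high in both TRF groups. MCM10 stood at 11.1, 11.3 and 10.2 TPM in CON and 14.1, 16.6 and 14.9 in DDP, against 19.9, 22.0 and 19.7 in TRF and 20.1, 20.8 and 19.7 in TRF+DDP. Both TRF groups lay above both groups in normal medium and overlapped with each other. It rose by 0.86 (standard error 0.0725, adjusted p = 7.52e-07) with TRF alone and by 0.84 in TRF+DDP against CON, while the change against DDP was 0.39. CDC7, the kinase that phosphorylates MCM, its activating subunit DBF4, and CDC45 were not called between groups. CDC45 was 20.4 ± 1.71 TPM in CON and 27.4 ± 1.58 in DDP (adjusted p = 0.00356), against 19.5 ± 0.862 in TRF and 23.3 ± 1.35 in TRF+DDP. CDC7 ranged from 2.72 to 6.66 TPM and DBF4 from 6.01 to 10.2.

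PCNA (ENSG00000132646) was highest with the combination. PCNA stood at 240, 245 and 220 TPM in CON and 325, 342 and 318 in DDP, against 249, 247 and 252 in TRF and 509, 467 and 495 in TRF+DDP. No pair of groups overlapped, with TRF+DDP highest, then DDP, then TRF and CON, which lay close together. The log2 change was 0.97 (standard error 0.0476, adjusted p = 1.84e-08) against TRF and 1.06 against CON, from 235 ± 13.2 to 490 ± 21.2 TPM (SD, n = 3). Against DDP it was 0.58 (adjusted p = 4.01e-07), under the fold threshold but called after TMM-style scaling (0.70) and without DDP replicate 2 (0.61), and with DDP in normal medium 0.48. With TRF alone it was 0.08 (adjusted p = 0.149).

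No subunit of the complex that loads PCNA was called higher between groups. Of RFC1 to RFC5, RFC4 was called, in the lower direction. RFC4 stood at 30.6, 33.3 and 27.5 TPM in CON and 25.8, 35.9 and 31.7 in DDP, against 18.3, 23.8 and 18.0 in TRF and 19.3, 19.9 and 20.9 in TRF+DDP. RFC4 fell by 0.59 with TRF alone and by 0.60 in TRF+DDP against DDP, both close to the fold threshold and both lost after TMM-style scaling (−0.47 and −0.48). RFC5 ranged from 21.0 to 28.0 TPM and was highest in all 3 TRF+DDP libraries, and RFC1, RFC2 and RFC3 lay between 14.4 and 47.1 TPM with no call. The ratio of PCNA to summed RFC1 to RFC5 was 1.91 ± 0.0955 in CON and 2.37 ± 0.0560 in DDP, against 2.08 ± 0.0667 in TRF and 3.74 ± 0.132 in TRF+DDP. Against summed MCM2 to MCM7 it was 0.402 ± 0.0186, 0.559 ± 0.0272, 0.509 ± 0.0246 and 1.33 ± 0.0333 in the same order.

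**Figure D4:**
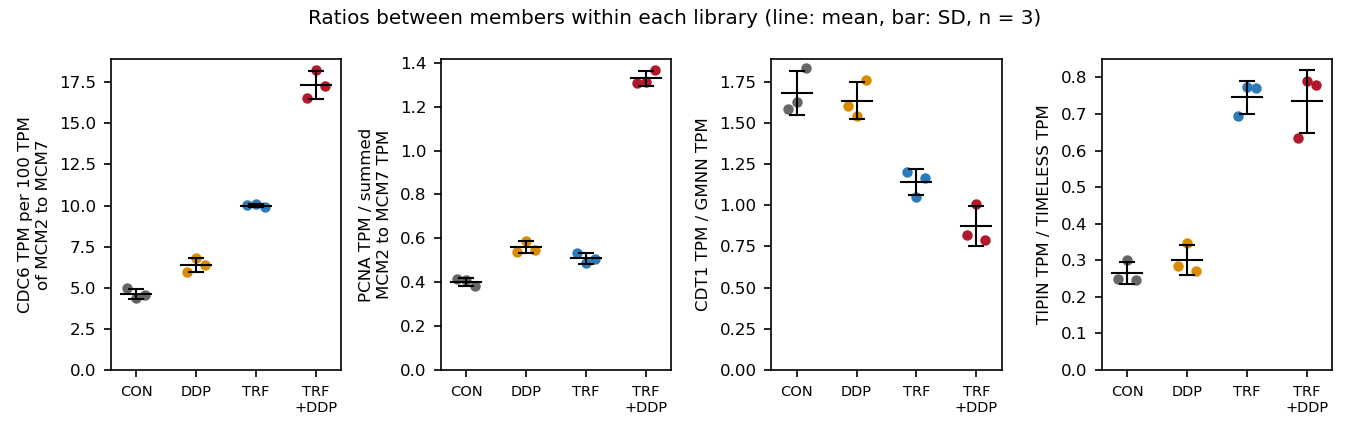
Ratios of TPM between members within each of the 12 libraries, with 1 panel a ratio and a vertical axis from 0 (points: libraries, line: mean, bar: SD, n = 3). CDC6 per 100 TPM of MCM2 to MCM7 steps up over the 4 groups to 17.3, PCNA per MCM is 1.33 in TRF+DDP against 0.402 in CON, CDT1 per GMNN steps down in both TRF groups, and TIPIN per TIMELESS is high in both.

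Among the polymerases, POLA1 and both primase genes, which start strands, fell, and POLD1, POLD2, POLD3, POLE and POLE2, of the polymerases that extend them, were not called between groups. POLA1, the catalytic subunit of polymerase alpha, was low in all libraries. POLA1 stood at 6.41, 5.25 and 5.17 TPM in CON and 5.32, 5.95 and 5.65 in DDP, against 3.31, 4.24 and 3.50 in TRF and 2.54, 2.21 and 2.40 in TRF+DDP. The TRF+DDP libraries were the lowest, with a log2 change of −0.97 (standard error 0.106, adjusted p = 4.84e-06) against DDP and −0.96 against CON on the log2(TPM + 1) scale, which understates the change of a gene at this level. The ratio of the mean TPM was 0.423 against DDP. PRIM2 stood at 12.6, 12.1 and 10.3 TPM in CON and 13.0, 13.5 and 12.3 in DDP, against 13.0, 11.3 and 11.3 in TRF and 7.05, 6.05 and 6.96 in TRF+DDP. PRIM2, the large subunit of primase, was lower in the TRF+DDP libraries than in all others, with a log2 change of −0.74 (standard error 0.0922, adjusted p = 3.9e-05) against TRF, −0.86 against DDP and −0.72 against CON. PRIM1 stood at 33.9, 34.3 and 30.9 TPM in CON and 33.0, 36.9 and 35.8 in DDP, against 24.7, 32.1 and 28.5 in TRF and 23.9, 17.5 and 21.2 in TRF+DDP. PRIM1, the catalytic subunit, fell by 0.74 against DDP and by 0.65 against CON, and TRF+DDP did not overlap with TRF either. The call against CON was lost without TRF+DDP replicate 2 (−0.53).

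POLA2, the accessory subunit of polymerase alpha, was 12.6 ± 0.356 TPM in CON and 17.9 ± 2.34 in DDP, against 13.5 ± 1.151 in TRF and 15.1 ± 0.503 in TRF+DDP, and was not called. POLD1, the catalytic subunit of polymerase delta, ranged from 33.0 to 49.7 TPM, and its smaller subunits POLD2 and POLD3 from 78.9 to 105 and from 15.1 to 21.9. POLE, the catalytic subunit of polymerase epsilon, was 19.2 ± 1.68 TPM in CON and 18.7 ± 1.02 in DDP, against 12.8 ± 1.20 in TRF and 13.1 ± 1.71 in TRF+DDP, with changes of −0.55 and −0.49 with TRF that missed the fold threshold. POLE2, its second subunit, ranged from 10.97 to 16.6 TPM.

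In the group of flap removal, ligation and single-strand binding, LIG1 and RPA3 fell with TRF alone. LIG1 stood at 35.2, 32.9 and 34.9 TPM in CON and 37.3, 37.7 and 33.6 in DDP, against 21.5, 21.9 and 22.9 in TRF and 31.4, 33.0 and 31.0 in TRF+DDP. LIG1, the ligase that joins Okazaki fragments, fell by 0.61 (standard error 0.0569, adjusted p = 1.72e-06) with TRF alone and had returned to near the CON level in TRF+DDP, at 0.51 against TRF (adjusted p = 1.71e-05, under the fold threshold). The call was lost after TMM-style scaling (−0.50). RPA3 stood at 46.7, 40.3 and 38.3 TPM in CON and 45.5, 42.2 and 42.5 in DDP, against 27.0, 23.4 and 24.0 in TRF and 29.6, 31.7 and 31.8 in TRF+DDP. RPA3, the smallest subunit of RPA, fell by 0.73 with TRF alone, and its change of −0.47 in the presence of DDP was under the fold threshold. RPA1, which binds the DNA, was 57.5 ± 1.04 TPM in CON and 62.0 ± 3.74 in DDP, against 43.4 ± 1.32 in TRF and 47.6 ± 2.50 in TRF+DDP. RPA2 was 38.1 ± 0.306, 44.2 ± 0.146, 47.6 ± 0.959 and 44.4 ± 2.54 TPM in the same order, so the 3 subunits of this complex did not share 1 pattern. FEN1, the flap nuclease, ranged from 98.9 to 116 TPM without a call.

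TIPIN (ENSG00000075131), which with TIMELESS steadies the fork and carries the checkpoint signal, rose with TRF in both backgrounds. TIPIN stood at 7.64, 9.38 and 7.66 TPM in CON and 9.09, 10.9 and 8.70 in DDP, against 16.7, 18.2 and 18.1 in TRF and 15.5, 19.0 and 17.3 in TRF+DDP. No library in normal medium reached the lowest TRF library. The log2 change was 1.02 (standard error 0.104, adjusted p = 3.77e-06) with TRF alone, 0.79 (standard error 0.104, adjusted p = 2.49e-05) in the presence of DDP and 0.99 in TRF+DDP against CON. Its partner TIMELESS was 31.0 ± 0.343 TPM in CON and 31.7 ± 0.464 in DDP, against 23.7 ± 0.303 in TRF and 23.5 ± 1.14 in TRF+DDP, with changes of −0.38 and −0.42 with TRF (adjusted p = 2.94e-05 and 8.6e-06) that missed the fold threshold. The ratio of TIPIN to TIMELESS was 0.265 ± 0.0300 in CON and 0.301 ± 0.0412 in DDP, against 0.746 ± 0.0454 in TRF and 0.735 ± 0.0864 in TRF+DDP. WDHD1, a scaffold that ties polymerase alpha to the helicase, ranged from 5.42 to 10.9 TPM and was not called.

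The interaction shows where the response to cisplatin differed between the media. All 6 genes of MCM2 to MCM7 were lower in it, with a median of −0.448 on the log2 scale. MCM4 had −0.64 (standard error 0.169, adjusted p = 0.0152), MCM6 −0.63, MCM3 −0.58, MCM5 −0.32, MCM2 −0.32 and MCM7 −0.16. With DDP in normal medium the differences of these genes ran from −0.10 (MCM6) to 0.26 (MCM4) and none was called, and in TRF medium from −0.73 (MCM6) to −0.27 (MCM7). The other genes lower in the interaction were GINS1 (−0.89), PRIM2 (−0.88), ORC1 (−0.73), CDT1, PRIM1 (−0.52), POLA1 (−0.48), MCM10 (−0.47), DBF4 (−0.37), POLD3 (−0.35), GINS2 (−0.31) and RPA2 (−0.31). Higher in it were PCNA at 0.49 (standard error 0.0673, adjusted p = 0.00021), LIG1 (0.43), RFC5 (0.26) and POLD2 (0.26). For MCM10 the difference with DDP was 0.45 in normal medium and −0.02 in TRF medium, neither of them called. The interaction calls of MCM7, DBF4, RFC5, POLA1, PRIM1 and POLD2 were each lost under at least 1 alternative, and the other 15 held under all that were run.

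**Figure D5:**
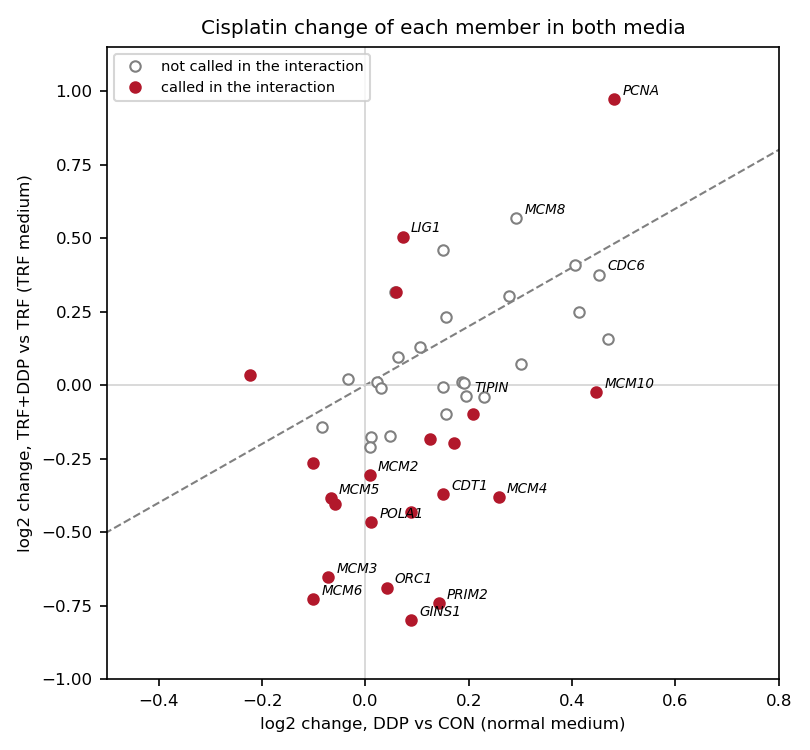
Log2 change with DDP of each of the 46 genes in normal medium (horizontal) and in TRF medium (vertical), with filled points for the 21 genes called in the interaction and a dashed line of equal change. Most filled points lie below the line, with GINS1, PRIM2, MCM6, ORC1 and MCM3 lowest, while PCNA, LIG1, RFC5 and POLD2 lie above it.

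Across genes, the change with TRF was more closely correlated between its backgrounds than the change with DDP. For each gene, however, the difference between backgrounds is the same for both, namely the interaction. The changes with DDP in normal medium were also smaller, from −0.223 to 0.481, against −0.727 to 1.021 with TRF alone. TRF against CON and TRF+DDP against DDP share no library. Over the 46 genes their changes had the same sign in 36, with Pearson's r = 0.745 and Spearman's rho = 0.762 across genes. For DDP, the changes in normal and in TRF medium had the same sign in 24 genes, with r = 0.523 and rho = 0.495. Genes measured in the same libraries are not independent, so no p is given. Gene length was compared because span and change were related over the whole table. Spearman's rho between the annotated span and the change was −0.275 over 13590 genes for TRF+DDP against DDP and −0.292 for the interaction, against −0.104 and −0.081 over the 46 genes. Of the members lower in TRF+DDP, PRIM2 and POLA1 have the longest spans of the 46 and MCM3, MCM5 and MCM6 are of middle length. The part of span in these changes was not tested.

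CDKN1A, the CDK inhibitor, stood beside these changes. CDKN1A stood at 116, 114 and 122 TPM in CON and 280, 268 and 278 in DDP, against 121, 130 and 126 in TRF and 960, 929 and 949 in TRF+DDP. It rose by 1.22 with DDP alone, 1.78 in TRF+DDP against DDP and 2.91 against TRF, was 0.09 with TRF alone (adjusted p = 0.0571), and had an interaction of 1.69 (standard error 0.0555, adjusted p = 7.65e-09). The TRF+DDP libraries were far above all others, and the CON and TRF libraries overlapped. Of 24 regulators of E2F and the G1/S step, 5 rose and 6 fell in TRF+DDP against DDP, with a median of −0.12. Among all genes 11.8% rose and 21.4% fell there. The interaction of these regulators was called higher in 3 and lower in 8, against 13.5% and 16.3% of all genes. E2F7, a repressor of E2F targets, rose by 1.14 against DDP and by 1.48 against TRF, from 4.23 ± 0.434 TPM in CON to 13.6 ± 0.460 in TRF+DDP, and was 0.01 with TRF alone. RBL2, the pocket protein p130, fell by 1.43 against DDP and by 1.31 with TRF alone. CDK6, a G1 kinase, fell by 1.21 against DDP, and its interaction was −0.67.

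Of 33 other replication factors, 2 rose (6.06%) and 4 fell (12.1%) in TRF+DDP against DDP (median −0.213), below the 11.8% and 21.4% of all genes. In the interaction 1 was higher (3.03%) and 9 were lower (27.3%), against 13.5% and 16.3% of all genes. TOP2A, the topoisomerase that untangles replicated chromosomes, fell by 1.14 against DDP and by 0.62 with TRF alone. NASP, a histone chaperone, fell by 0.94 and 0.84. POLE3, a small subunit of polymerase epsilon, rose by 1.04 and 0.94, and DSCC1, of the alternative clamp loader, by 0.72 and 0.66. These 4 therefore were called in the same direction with TRF in both backgrounds, and the interaction was called for TOP2A alone (−0.52).

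Of 10 genes of nucleotide supply, 3 rose and 1 fell in TRF+DDP against DDP (median 0.049), against 11.8% and 21.4% of all genes. In the interaction 6 were higher and 0 lower, against 13.5% and 16.3% of all genes. RRM2, the subunit of ribonucleotide reductase made in S phase, was 111 ± 1.56 TPM in CON and 146 ± 5.67 in DDP, against 163 ± 6.27 in TRF and 278 ± 10.7 in TRF+DDP, a rise of 0.92 against DDP and 0.77 against TRF. RRM2B, its p53-inducible relative, rose by 0.94 with DDP, 0.71 in TRF+DDP against DDP and 2.07 against TRF. CTPS1, which makes CTP, rose by 0.88 against DDP and 1.05 with TRF alone, and DUT, which removes dUTP, fell by 0.77 and by 1.03.

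The mitosis genes that were called were all lower. Of 24 such genes, in TRF+DDP against DDP 0 rose and 17 fell (median −0.812), against 11.8% and 21.4% of all genes. In the interaction 17 were lower and 0 higher, against 16.3% and 13.5% of all genes. At an unadjusted p under 0.05 by limma, 0 were higher and 23 lower against DDP (28.3% and 40.1% of all genes). NUSAP1, which binds spindle microtubules, fell by 1.87 against DDP and by 1.33 with TRF alone. CENPF, of the kinetochore, fell by 1.501 and 0.83, and the kinesin KIF20A by 1.38 and 0.82. PLK1, the mitotic kinase, was 78.1 ± 1.18 TPM in CON and 79.9 ± 6.40 in DDP, against 95.5 ± 2.99 in TRF and 31.4 ± 2.09 in TRF+DDP, with an interaction of −1.61 (standard error 0.0879, adjusted p = 5.7e-07). With DDP in normal medium 0 of the 24 were called (2.01% of all genes). By limma 5 were higher and 0 lower with an unadjusted p below 0.05 (21.0% and 6.19% of all genes). Replication genes beside them in the same libraries moved in both directions, with 2 higher and 8 lower of 46.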

How the data were processed

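RNA from A549/DDP cells was sequenced in 4 groups of 3 libraries, and the 12 sample columns were mapped to CON, DDP, TRF and TRF+DDP by their labels. The labels give the line as A549/DDP, while the extraction protocol and the study's methods name A549 tumor cells as the source of RNA. The authors aligned the reads with HISAT2, assembled transcripts with StringTie and deposited TPM for each gene in each library beside group means. The submitters' processing notes also name edgeR. Their versions, the genome build and the use of strand were not given in the sources used here. Read counts were not analysed here, so depth is unknown and precision rests on the spread of 3 libraries. DESeq2, which the authors used, needs counts, and limma with their thresholds took its place.

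TPM was used as log2(TPM + 1), and the 13854 genes averaging 1 TPM or more were fitted by limma with trended, robust variance moderation, the 4 groups together, with Benjamini-Hochberg adjustment over all genes in each of 6 comparisons. Fold changes on this scale understate the change of low genes. The steps were tested on simulated data. The 46 genes and the lists beside them were chosen with earlier results of these data known. Each member is named with its role, and TPM in every library is given for members called between 2 groups, with MCM2, MCM4 and CDT1 added after their values were seen. From each further list up to 4 called genes with the largest change in TRF+DDP against DDP are named, with CDKN1A in any case. Promoter windows were read from RefSeq (GRCh38.p14) and spans from GENCODE v29 (GRCh38). Protein sequences were not used here. Alternatives tried were TMM-style scaling (trims of 0.3 and 0.05), quantile normalization, a pseudocount of 0.1, no filter, a filter of 1 TPM in every library, no fold threshold, only the 2 groups compared, a replicate block, and each library left out. Fits used limma 3.58.1 (R 4.3.3); tables and plots used pandas 2.3.3, numpy 2.4.6 and matplotlib 3.10.9 (Python 3.11.15).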

Additional observations from a re-analysis of the deposited data

Results flagged for a closer look

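For 21 of the 46 replication genes the change with DDP differed between TRF medium and normal medium, by the interaction term of the limma fit at a Benjamini-Hochberg adjusted p under 0.05. On the log2 scale the difference was lower in TRF medium for 17 genes, with GINS1 −0.89, PRIM2 −0.88, ORC1 −0.73, MCM4 −0.64, MCM6 −0.63, MCM3 −0.58, CDT1 −0.52, PRIM1 −0.52, POLA1 −0.48, MCM10 −0.47, DBF4 −0.37, POLD3 −0.35, MCM5 −0.32, MCM2 −0.32, GINS2 −0.31, RPA2 −0.31, MCM7 −0.16. It was higher for 4 genes, with PCNA 0.49, LIG1 0.43, RFC5 0.26, POLD2 0.26. Over all genes tested 16.3% were lower and 13.5% higher. Groups of 3 libraries were not tested for a library that stands apart.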

How the results depend on the processing

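No called direction turned over under any alternative. Of 36 calls between 2 groups 6 were lost under at least 1 alternative: RFC4 in TRF against CON (log2 change −0.47 after TMM-style scaling) and in TRF+DDP against DDP (−0.48), LIG1 in TRF against CON (−0.50 after TMM-style scaling), GINS3 in TRF against CON without TRF replicate 2 (0.56), MCM7 in TRF+DDP against CON (−0.57 after TMM-style scaling) and PRIM1 there without TRF+DDP replicate 2 (−0.53). Of 21 interaction calls 6 were lost (MCM7, DBF4, RFC5, POLA1, PRIM1 and POLD2). With no fold threshold the counts higher and lower were 11 and 25 for TRF+DDP against DDP (27.0% and 38.4% of all genes), 12 and 13 for TRF against CON (23.7% and 37.0%), 9 and 1 for DDP against CON (10.0% and 2.17%), 11 and 14 for TRF+DDP against TRF (28.1% and 19.8%), and 16 and 19 for TRF+DDP against CON (31.9% and 35.3%). TMM-style scaling moved the median of all genes from −0.113 to −0.0066 in TRF against CON and from −0.096 to 0.0063 in TRF+DDP against DDP. Under it and under quantile normalization TRF against CON had 6 genes higher and 1 lower, RPA3, in place of 4 and 3. Over all genes, 1632 were then higher and 1842 lower (TMM-style) or 1625 and 1635 (quantile), in place of 1165 and 2375. Calls gained under an alternative between 2 groups include PCNA in TRF+DDP against DDP after TMM-style scaling (0.70) and MCM4 there after quantile normalization (−0.61). With a pseudocount of 0.1, 2 genes were higher in TRF+DDP against TRF. The median log2 change of the 46 genes, whose pooled SD between libraries was 0.0279, was −0.109 after quantile normalization and −0.07 after TMM-style scaling for TRF+DDP against DDP, 0.05 and 0.132 for TRF against CON, 0.041 and 0.035 for DDP against CON, −0.102 and −0.106 for TRF+DDP against TRF, and −0.04 after TMM-style scaling for TRF+DDP against CON.

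Leaving out each library in turn gave medians of −0.245 (without DDP replicate 3) to −0.16 for TRF+DDP against DDP, −0.007 to 0.01 for TRF against CON, 0.079 (without CON replicate 3) to 0.137 for DDP against CON, −0.082 (without TRF+DDP replicate 2) to −0.017 for TRF+DDP against TRF, −0.101 to −0.051 for TRF+DDP against CON, and −0.237 (without TRF replicate 1) to −0.169 for the interaction. Counts higher ran from 1 to 2 in TRF+DDP against TRF, with 2 without TRF replicate 3 or TRF+DDP replicate 2, and from 2 (without DDP replicate 1) to 5 in the interaction, and counts lower from 13 to 17 there. The causes were not tested. Replicates with the same number did not deviate together (r of their deviations −0.082 to 0.0795 over 18 pairs, against −0.0835 to 0.1265 for different numbers). This cannot show whether they were grown or handled together. With the replicate number as a block, 16 genes in place of 17 were lower in the interaction, where MCM7 had an adjusted p of 0.0518, and the pairing changed no other call of a member. The unknown depth limits the low genes most, such as MCM8, CDC7 and POLA1.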
